A study of Mus musculus with 7 samples.

Results

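The Notch pathway was described here through 10 genes: the receptors Notch1, Notch2, Notch3 and Notch4, the ligands Dll1, Dll4, Jag1 and Jag2, the target gene Hes1 and the DNA-binding factor Rbpj. Every open chromatin region (OCR) that overlapped the body of one of these genes, or the 20 kb on either side of it, was taken from the ATAC-seq peak lists of 7 libraries (mm10, genes of GENCODE M21). After peaks that overlapped between libraries were merged, 160 of 144931 OCRs lay in the windows of these 10 of 21938 protein-coding genes. HPC7 is an immortalised mouse hematopoietic progenitor line that depends on stem cell factor, and ATAC-seq maps the DNA that the Tn5 transposase can reach. The labels of all 7 libraries name HPC7 cells and no treatment, with stem cell factor and serum in the medium, and each came from its own culture batch, so by the labels the libraries are replicates of a single group in a single line, and no treatment was compared.

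Notch receptors are cut by proteases when a Delta-like or Jagged ligand on a neighbouring cell binds them. The released intracellular part enters the nucleus and joins RBPJ, which sits on DNA and without it recruits repressors, and genes such as Hes1, which encodes a repressor, are then transcribed. In blood formation the pathway is best known for the emergence of stem cells from the endothelium of the embryo and for the choice of the T cell fate. An OCR shows that DNA is accessible and is not a measure of transcription.

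Intensity is the fold enrichment of reads at the summit of a peak over the background of its library, and it was turned into a percentile, the rank from 0 to 100 among all peaks of that library. The number of peaks per library was between 84593 and 132852. HPC7-1 stood apart in depth, with a background of 20.4 reads against 4.44 to 7.45 reads in the other 6 libraries. The fewest reads at the summit of any listed peak was between 12 and 35. Peak names in HPC7-1, HPC7-2 and HPC7-4 begin with VD and those in HPC7-5 to HPC7-8 with EtOH. The labels give no such condition, whether these cells were treated cannot be told from the sources used here, and no test used the prefixes, which serve below only to give the pair differences within each set of names. Coding starts of 8 of 8 hematopoietic progenitor markers, Kit, Cd34, Gata2, Tal1, Lyl1, Runx1, Meis1 and Lmo2, were open in all 7 libraries, against 1 of 5 T cell markers (Cd3d), 0 of 4 B cell markers, 1 of 4 endothelial markers (Vwf) and 0 of 2 hepatocyte markers.

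The strongest OCRs in the bodies of Notch1 and Notch2 and that at the 3′ end of Dll4 lay away from coding starts, and the OCRs of Jag1 and Rbpj at their starts. The 201 bases centred on the summit of each are shown because the description of these loci turns on them. They are a selection, and the windows at the Notch2 promoter and in the body of Notch3, which hold none of the hexamers named here, are not printed. They are the plus strand of mm10 in lower case, read from the GRCm38 assembly. Capitals mark matches on either strand to the hexamer TGGGAA for RBPJ, the hexamer AGATAA for GATA factors, the hexamer TGTGGT for RUNX factors, the hexamer GGAAGT for ETS factors and the hexamer CAGCTG for the E-box.
Notch1 intron, chr2:26483397-26483597: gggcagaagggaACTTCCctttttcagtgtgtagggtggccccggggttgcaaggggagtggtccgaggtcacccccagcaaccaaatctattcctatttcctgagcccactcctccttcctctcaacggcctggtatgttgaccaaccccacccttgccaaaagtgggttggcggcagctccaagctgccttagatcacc
Notch2 intron, chr3:98063265-98063465: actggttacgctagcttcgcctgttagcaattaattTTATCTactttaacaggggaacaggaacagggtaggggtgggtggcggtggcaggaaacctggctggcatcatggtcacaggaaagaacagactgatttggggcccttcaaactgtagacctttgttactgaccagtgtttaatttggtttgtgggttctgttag
Dll4 3′ end, chr2:119337939-119338139: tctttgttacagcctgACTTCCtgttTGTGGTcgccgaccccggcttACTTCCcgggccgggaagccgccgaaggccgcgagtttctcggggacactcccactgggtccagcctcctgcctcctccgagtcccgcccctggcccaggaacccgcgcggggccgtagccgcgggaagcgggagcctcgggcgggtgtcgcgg
Jag1 promoter, chr2:137116802-137117002: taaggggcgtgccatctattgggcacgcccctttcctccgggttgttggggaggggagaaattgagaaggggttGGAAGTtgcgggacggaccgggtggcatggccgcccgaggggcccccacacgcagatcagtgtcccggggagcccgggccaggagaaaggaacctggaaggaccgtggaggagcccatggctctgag
Rbpj promoter, chr5:53589277-53589477: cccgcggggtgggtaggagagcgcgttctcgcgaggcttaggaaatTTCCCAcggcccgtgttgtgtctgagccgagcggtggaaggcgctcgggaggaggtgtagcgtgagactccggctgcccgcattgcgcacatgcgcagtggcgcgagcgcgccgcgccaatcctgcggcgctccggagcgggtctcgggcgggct

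The Rbpj promoter window holds 1 match to the RBPJ hexamer, TTCCCA on the plus strand, and the other 4 windows hold none. The Dll4 window holds 2 ETS matches and 1 RUNX match, the Notch1 and Jag1 windows 1 ETS match each, and the Notch2 window 1 GATA match. The RBPJ hexamer also matched at some OCRs described below and not printed. At Hes1, chr16:30062373-30064747 held 1 match, chr16:30064939-30065567 held 2 and chr16:30066272-30067459 held 0. At Notch4, chr17:34571372-34572734 held 2, and at Notch3, chr17:32166672-32167194 held 1. Over all 160 OCRs of the Notch genes the RBPJ hexamer was present in 20.6% of windows, against 16.9% of windows of all OCRs. For the other hexamers these shares were 8.75% and 13.6% for GATA, 25.6% and 26.8% for RUNX, 27.5% and 25.4% for ETS, and 15.6% and 14.5% for the E-box. A match is a string of letters and not a bound site, and no test was made of these shares.

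Of the 160 OCRs, 88 were found in all 7 libraries, 55.0% against 46.2% of all OCRs, 43 in 2 to 6 libraries and 29 in 1 library. Among all 144931 OCRs, 25994 (17.9%) were found in 1 library. Of the 29 OCRs of 1 library, 22 were listed only in HPC7-1 and 3 only in HPC7-8. In the top 25% of intensity in all 7 libraries were 23 OCRs, 14.4% against 13.9% of all OCRs. For OCRs found in all 7 libraries the mean percentile had a median of 62.2, and for those found in 1 library a median of 8.15, with no OCR of 1 library above 33.6. Where they were listed, OCRs of the Notch genes that were missed in some libraries thus stood below the median OCR of all 7 libraries. A peak is listed only past the authors' threshold, so library support and intensity are linked by the peak calling itself. The same values over all OCRs are not given here. The plot of intensity against library support shows that none of the OCRs found in fewer than 7 libraries had a mean percentile above 46.9.

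**Figure D1:**
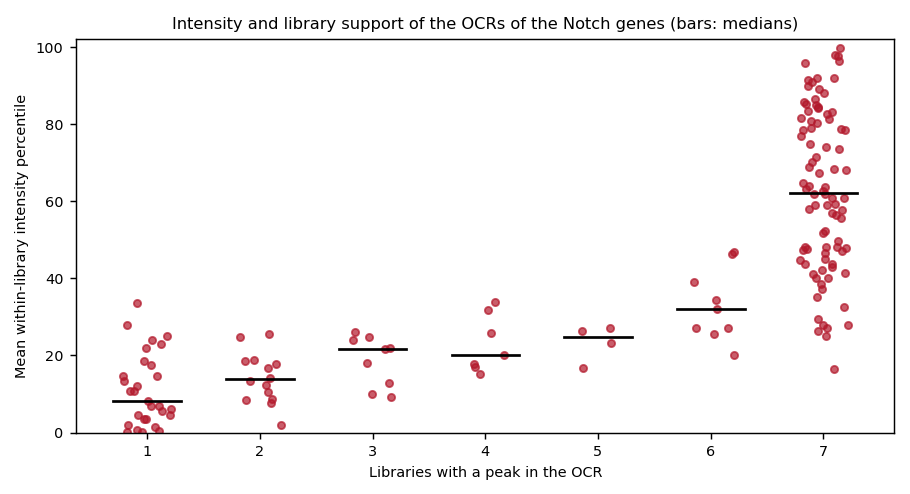
Mean within-library intensity percentile (vertical axis) of each of the 160 OCRs of the Notch genes by its library support, the count of libraries that list it (horizontal axis). Points are OCRs, spread sideways for legibility, and bars are medians, which lay at 8.15 for 1 library and 62.2 for 7 libraries.

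By position, 39 OCRs lay within 3 kb of a transcript start of the member gene itself, of which 24 were found in all 7 libraries. A further 66 lay elsewhere in the gene body, of which 37 were found in all 7, and 59 of these 66 had their summit in an intron. Outside the member's own promoters and body were 55 OCRs, 27 of them in all 7 libraries: 16 at the promoter of another gene, 5 in the body of another gene and 34 between genes. The median percentile within a library was 65.8 ± 2.86 (SD, n = 7 libraries) for promoter OCRs, 52.2 ± 4.99 for gene body OCRs and 46.4 ± 4.48 for intergenic OCRs. Promoters of neighbouring genes inside the windows stood at 68.3 ± 4.04, which overlaps the range of the members' own promoters.

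The genes differed widely in how many OCRs their windows held. Notch2 had 36 OCRs, 21 of them in all 7 libraries, Rbpj 25 and 13, Notch1 and Notch3 20 and 11 each, Jag2 19 and 13, Notch4 14 and 8, Dll4 11 and 4, Hes1 8 and 4, Dll1 5 and 2, and Jag1 2 and 1. The windows differ in length, from 43.4 kb for Hes1 to 231 kb for Rbpj. Per 10 kb of window, Jag2 was the densest, with 3.07 OCRs, above 94.3% of protein-coding genes, and Jag1 the sparsest, with 0.266 OCRs, above 25.3% of them. Of the 19 OCRs of the Jag2 window, 10 lay outside its own promoters and body, 5 of them at promoters of other genes. The median protein-coding gene had 1.05 OCRs per 10 kb. The receptors lay close together, at 2.03 for Notch1, 2.04 for Notch2, 2.32 for Notch3 and 2.18 for Notch4. Rbpj, with 25 OCRs over a long window, had 1.08 per 10 kb, near the median gene.

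**Figure D2:**
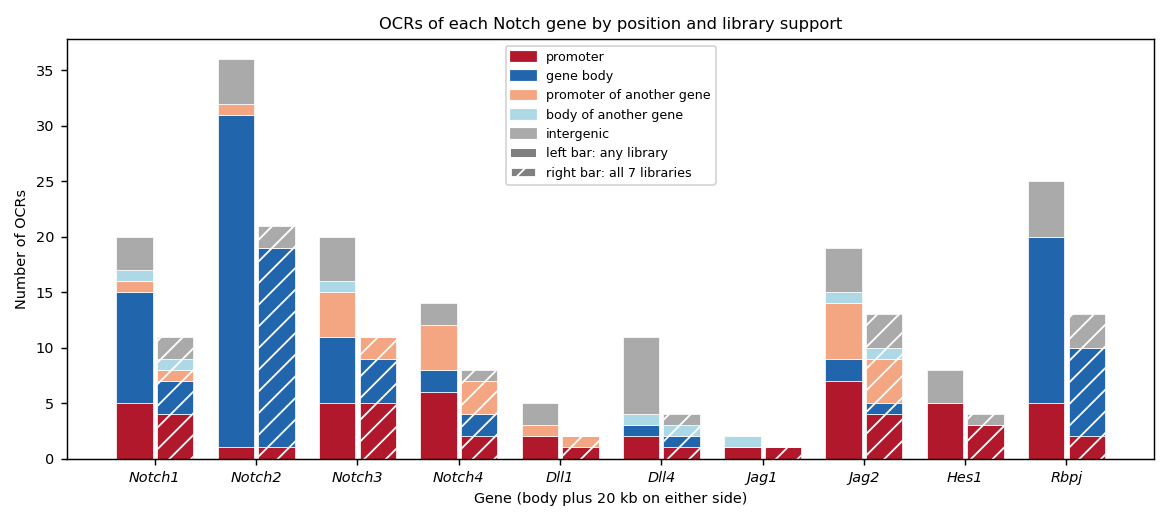
Number of OCRs (vertical axis) in the window of each Notch gene (horizontal axis), coloured by position, with the left bar for OCRs of any library and the hatched right bar for those of all 7 libraries. Gene body OCRs make up most of the bars of Notch2 and Rbpj, and Jag1 has 2 OCRs in all.

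All 10 genes had an OCR within 3 kb of one of their annotated transcript starts in all 7 libraries, as did 60.8% of protein-coding genes. In the top 25% of intensity in all 7 libraries were 8 of the 10, against 50.3% of protein-coding genes. Many of those starts are of non-coding or retained-intron transcripts deep inside the gene, so the same was counted within 1 kb of the starts of coding transcripts, a narrower definition that was chosen after the data were seen. Within 1 kb of any start the count was still 10 of 10, against 55.9% of protein-coding genes. At coding starts within 1 kb, 9 of 10 genes had one in all 7 libraries, against 54.3% of protein-coding genes, and 5 of 10, Notch2, Dll4, Jag1, Hes1 and Rbpj, were in the top 25% in all 7, against 47.3%. Notch4 was the exception, with a peak at its coding start in 3 of 7 libraries. Both values are given for the genes where they differ, Notch1, Notch3, Notch4 and Jag2.

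At coding starts the order from the strongest was Rbpj, Notch2, Hes1, Dll4, Jag1, Dll1, Notch1, Jag2, Notch3 and Notch4. Notch2 and Hes1 did not differ beyond the spread of their differences between libraries, nor did Dll4 and Jag1, nor Jag2 and Notch3. Every other step in the order was larger than 1 SD of the difference and had the same sign in all 7 libraries. Set among 21938 protein-coding genes, whose median coding-start percentile was 69.0, Rbpj ranked above 81.6% of genes, Notch2 above 68.2%, Hes1 above 66.5%, and Notch4 above 43.3%. Within 3 kb of any start the median percentile was 80.8. There Notch4 ranked above 89.9% of genes, Rbpj above 80.2%, Notch2 above 66.1% and Hes1 above 64.3%. The remaining members ranked above 46.6% (Notch3) to 53.5% (Jag2).

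**Figure D3:**
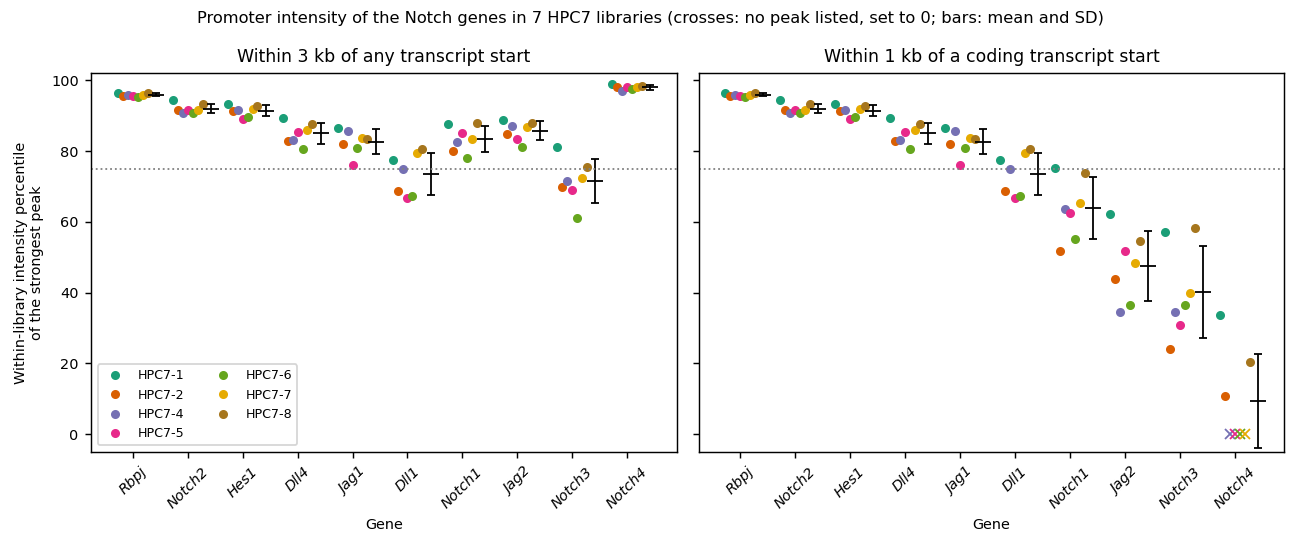
Within-library percentile (vertical axis) of the strongest peak within 3 kb of any transcript start (left) or 1 kb of a coding transcript start (right) of each Notch gene (horizontal axis). Points are the 7 libraries, crosses are libraries without a peak, bars are mean and SD over the 7 libraries with missing peaks set to 0, and the dotted line is the 75th percentile. Notch4 falls from a mean of 98.0 on the left to 9.24 on the right.

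Among the receptors, Notch2 had the most intense coding start. Its promoter OCR, chr3:98012987-98016070, spans the coding start at 98013538, and its percentile was 90.7 in the lowest library, 91.6 in the median one and 94.4 in the highest. The mean was 92.0 ± 1.34 and the mean fold enrichment 68.4 ± 13.3 (SD, n = 7). The body of Notch2 carried 30 more OCRs, of which 28 had their summit in an intron. Of the 18 that were found in all 7 libraries, 14 had their summit in the first 60 kb from the 5′ end of this 137 kb gene. The cut at 60 kb falls in a gap between such summits at 56.1 and 70.8 kb. No other gene was compared in this respect. The strongest of the 18, chr3:98061139-98064640, lay in an intron with its summit 49.8 kb from the 5′ end, at a percentile of 89.9 ± 1.86 and a fold enrichment of 54.5 ± 8.71. It was below the Notch2 promoter in each of 7 libraries, by 2.13 ± 1.65 percentile points on average. Intronic OCRs in the top 25% in all 7 libraries were also found at chr3:98031090-98032648 (81.7 ± 2.99), which overlaps Gm42819 and lies within 3 kb of a start of it, and at chr3:98045696-98046869 (83.3 ± 3.17) and chr3:98100546-98102142 (84.4 ± 3.02). The strongest outside the gene was intergenic, chr3:98009225-98009956, with its summit 3.97 kb upstream and a percentile of 68.0 ± 5.60.

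Notch1, the receptor that drives the T cell fate, was less intense at its coding starts than at its strongest intronic OCR. The annotated 5′ end of Notch1 is a coding start at chr2:26516663, where the OCR chr2:26516287-26516687 was listed in 4 of 7 libraries, at a percentile of 33.8 ± 17.3 in those 4. A second coding start, at 26503822, 12.8 kb downstream, was covered in all 7 libraries by chr2:26502348-26504130. Its percentile was 51.8 in the lowest library, 63.8 in the median one and 75.2 in the highest, with a mean of 63.9 ± 8.68 and a fold enrichment of 10.6 ± 3.01. The OCR chr2:26482589-26484301, with its summit in an intron 33.2 kb from the 5′ end, reached 91.9 ± 1.60 and a fold enrichment of 68.1 ± 13.9. It was above the coding start in 7 of 7 libraries, and no library of the one overlapped any of the other. Within 3 kb of some Notch1 start the strongest was chr2:26500233-26501323, over a non-coding exon, at 83.5 ± 3.67. The most intense OCR of the window, chr2:26443994-26447668 at 97.6 ± 0.672, lay past the 3′ end at the promoters of Sec16a, which organises the sites where cargo leaves the endoplasmic reticulum, and 0610009E02Rik.

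Notch3 had a modest OCR at its 5′ coding start and stronger ones on either side. At chr17:32166672-32167194, over the coding start at 32166852, the percentile was 24.1 in the lowest library, 36.5 in the median one and 58.2 in the highest, and the fold enrichment was 5.45 ± 1.45. The next coding start, 29.0 kb downstream, had no OCR within 1 kb. An OCR with its summit 3.16 kb upstream of the 5′ end, chr17:32169074-32170372, stood at 71.5 ± 6.15. The strongest in the body, chr17:32142927-32143802, had its summit in coding sequence 23.6 kb from the 5′ end, at 84.3 ± 2.86 and a fold enrichment of 32.1 ± 7.93. It exceeded the coding start of Notch3 in 7 of 7 libraries. Outside the gene the strongest that was not a Notch3 promoter OCR, at the promoter of Gm17276, chr17:32110739-32111400, stood at 44.7 ± 12.1.

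Notch4 showed the widest gap between definitions. Its only coding start, chr17:34564268, had a peak in HPC7-1 (fold enrichment 3.46), HPC7-2 (3.49) and HPC7-8 (3.79) and none listed in the other 4 libraries. The lists hold only peaks past the authors' threshold, so a weaker signal in those 4 libraries was not detectable. An OCR with its summit 2.89 kb upstream of that start, chr17:34561036-34561695, was found in all 7 libraries at 74.1 ± 5.10. Within 3 kb of any Notch4 start the percentile was 97.0 in the lowest library, 98.1 in the median one and 98.9 in the highest. That value comes from chr17:34585872-34594285, an OCR 8414 bp wide at the 3′ end of the gene. Its strongest summit lay between 34587486 and 34587513 in all 7 libraries, in coding sequence of Notch4, and in the library with the highest percentile it was 467 bp from the start of a non-coding Notch4 transcript. The mean fold enrichment there was 141 ± 28.5. The same OCR also covers the starts of Pbx2, a homeodomain cofactor, and Gpsm3. In 5 of 7 libraries that side was listed as a peak of its own, with its summit between 34592094 and 34592102, at a percentile of 92.0 ± 1.36 and a fold enrichment of 66.3 ± 6.69 (SD, n = 5), below the summit in Notch4 in each of the 5. Elsewhere in the window, the intronic OCR chr17:34571372-34572734 stood at 59.0 ± 8.31, and the OCR at the promoters of Rnf5, which encodes a ubiquitin ligase, and Agpat1, which encodes an enzyme of lipid synthesis, chr17:34602481-34607122, stood at 99.8 ± 0.0964.

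**Figure D4:**
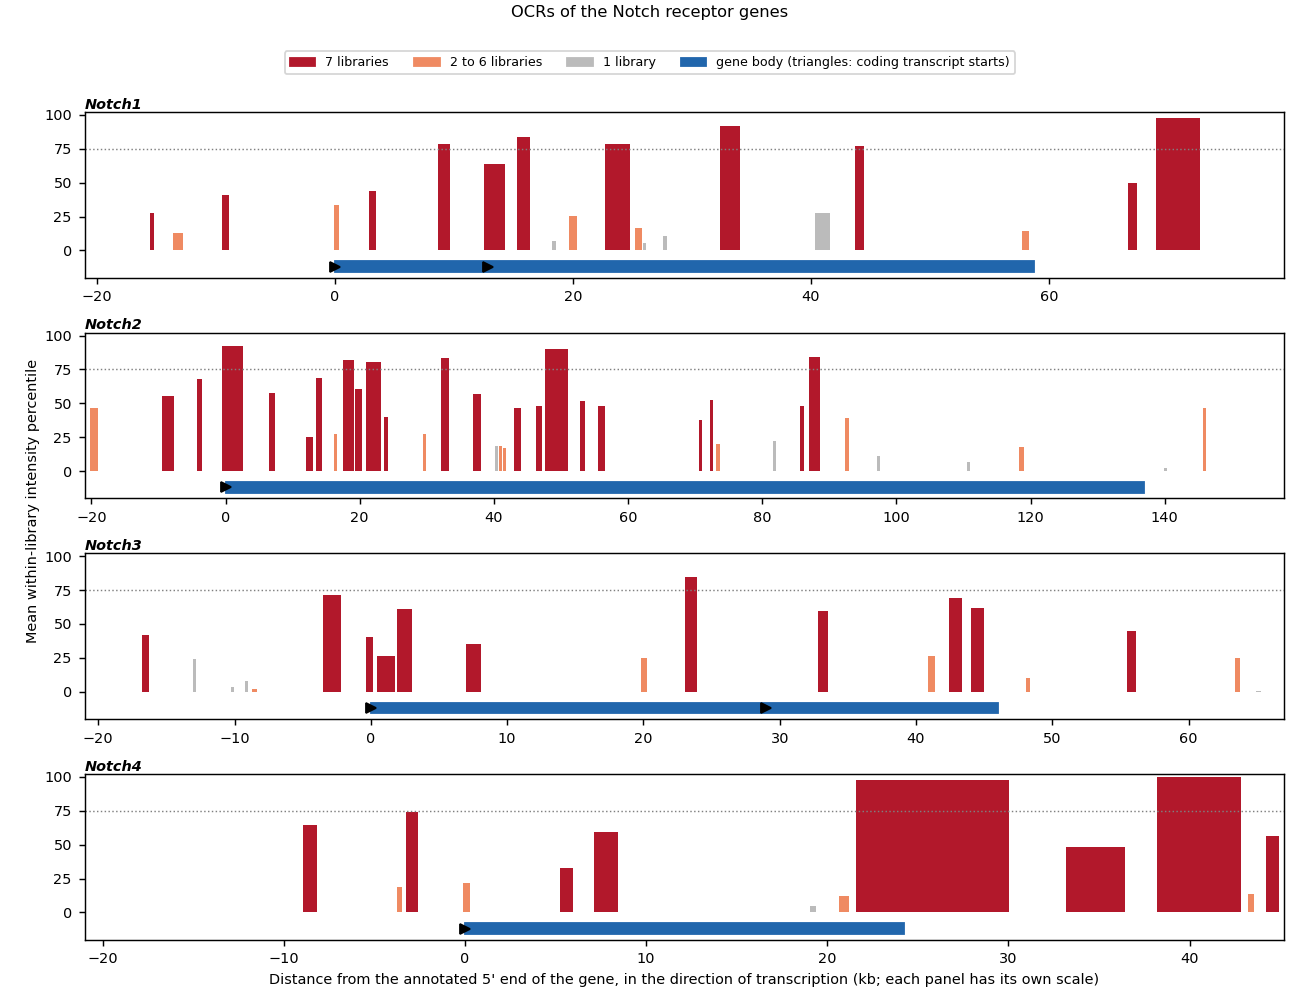
OCRs of the 4 receptor genes as bars at their distance from the annotated 5′ end in the direction of transcription (horizontal axis, kb), with the mean within-library percentile as height. Colours give the number of libraries, blue the gene body, black triangles coding starts and the dotted line the 75th percentile. Notch1 and Notch3 have their tallest own bars inside the gene, and the widest Notch4 bar, at 98.0, spans the 3′ end.

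Among the ligands Dll1, Dll4, Jag1 and Jag2, Dll4 had the highest mean at coding starts. Its difference from Jag1 (2.39 ± 3.72) was not beyond the spread. Within 3 kb of any start Jag2 was at 85.7 against 85.0 for Dll4, again within the spread. Dll4 had a more intense OCR at its 3′ end than at its promoter. DLL4 is the ligand that thymic epithelium presents to incoming progenitors, and it is also made by arterial endothelium. The promoter OCR chr2:119323921-119327370, which also lies within 3 kb of a start of Gm14207, had a percentile of 80.6 in the lowest library, 85.4 in the median one and 89.4 in the highest, and a fold enrichment of 34.6 ± 8.64. The merged OCR chr2:119335877-119338607 touches only the last bases of Dll4 and has its summit 12.3 kb from the 5′ end, outside the gene. In 6 libraries 2 or more listed peaks were merged in this OCR. Apart from the promoter peak, a listed peak over the gene body was stronger than the promoter in 1 library. The merged OCR stood at 90.9 ± 1.87, from 88.9 to 93.7, and at a fold enrichment of 61.2 ± 12.6. An intergenic OCR with its summit 11.5 kb upstream, chr2:119313640-119314986, stood at 80.9 ± 4.05.

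Dll1 and Jag1 had few OCRs beyond their promoters. The Dll1 promoter OCR chr17:15374609-15378321 covers both coding starts of the gene and lies within 3 kb of a start of A930024N18Rik. Its percentile was 66.7 in the lowest library, 74.8 in the median one and 80.7 in the highest, with a fold enrichment of 15.8 ± 4.25. The other Dll1 OCR of all 7 libraries, chr17:15395348-15397003 at 96.4 ± 0.894, lay 19.4 kb upstream at the promoter of Fam120b. At the Jag1 promoter, chr2:137115966-137117785, the percentile was 76.1 in the lowest library, 83.5 in the median one and 86.5 in the highest, and the fold enrichment 27.8 ± 5.21. No OCR was listed elsewhere in the 35.2 kb of the Jag1 body, and the only other one of its window was found in 2 libraries.

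Jag2, with the densest window, was weak at the coding start at its 5′ end, and its other coding start, 13.8 kb downstream, had no OCR within 1 kb. The OCR there, chr12:112928309-112930291, had a percentile of 34.6 in the lowest library, 48.3 in the median one and 62.3 in the highest, and a fold enrichment of 6.36 ± 1.41. An OCR over a non-coding exon near the 3′ end, chr12:112909243-112910919, with its summit 19.8 kb from the 5′ end, stood at 81.2, 86.9 and 88.8 in the lowest, median and highest library and at a fold enrichment of 36.6 ± 6.94. It exceeded the coding start in 7 of 7 libraries, and the ranges did not overlap. Past the 3′ end an intergenic OCR, chr12:112897356-112898417, stood at 81.4 ± 2.90. Upstream of Jag2 were OCRs at promoters of Nudt14, which encodes a hydrolase of sugar nucleotides, chr12:112937359-112940477 (88.0 ± 2.10) and chr12:112940986-112942880 (89.0 ± 1.72), and of Gm26583, chr12:112949356-112953786 (86.7 ± 2.23). The strongest gene body OCR of Jag2 outside its own promoters and found in all 7 libraries, chr12:112922544-112923021, had its summit in an intron within 3 kb of a start of Mir6941 and was at 29.3 ± 15.3.

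Hes1 had several intense OCRs around its start. Just upstream of its coding start at chr16:30065340, the OCR chr16:30062373-30064747 had a percentile of 89.1 in the lowest library, 91.7 in the median one and 93.4 in the highest, and a fold enrichment of 64.0 ± 10.1. This OCR was in the top 25% in all 7 libraries. Over the coding start itself, chr16:30064939-30065567 stood at 78.5 ± 3.76, and chr16:30066272-30067459, with its summit in coding sequence, at 79.0 ± 3.98.

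Rbpj had the most intense coding start of the 10 genes. The start annotated furthest 5′, chr5:53466152, had no OCR within 1 kb in any library, nor had the coding start at 53555834. The 4 coding starts 124 to 125 kb downstream, between 53590214 and 53590981, were all covered by chr5:53588261-53592156. Its percentile was 95.3 in the lowest library, 95.9 in the median one and 96.4 in the highest, and its fold enrichment 104 ± 16.4. Of the 15 OCRs in the body more than 3 kb from any annotated Rbpj start, all with an intronic summit, 8 were found in all 7 libraries, the strongest being chr5:53529843-53530362 at 74.8 ± 5.51. Outside the gene, the strongest was intergenic, chr5:53657871-53658879, at 63.3 ± 6.57. The map of these loci shows the single tall bar of Rbpj among lower ones.

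**Figure D5:**
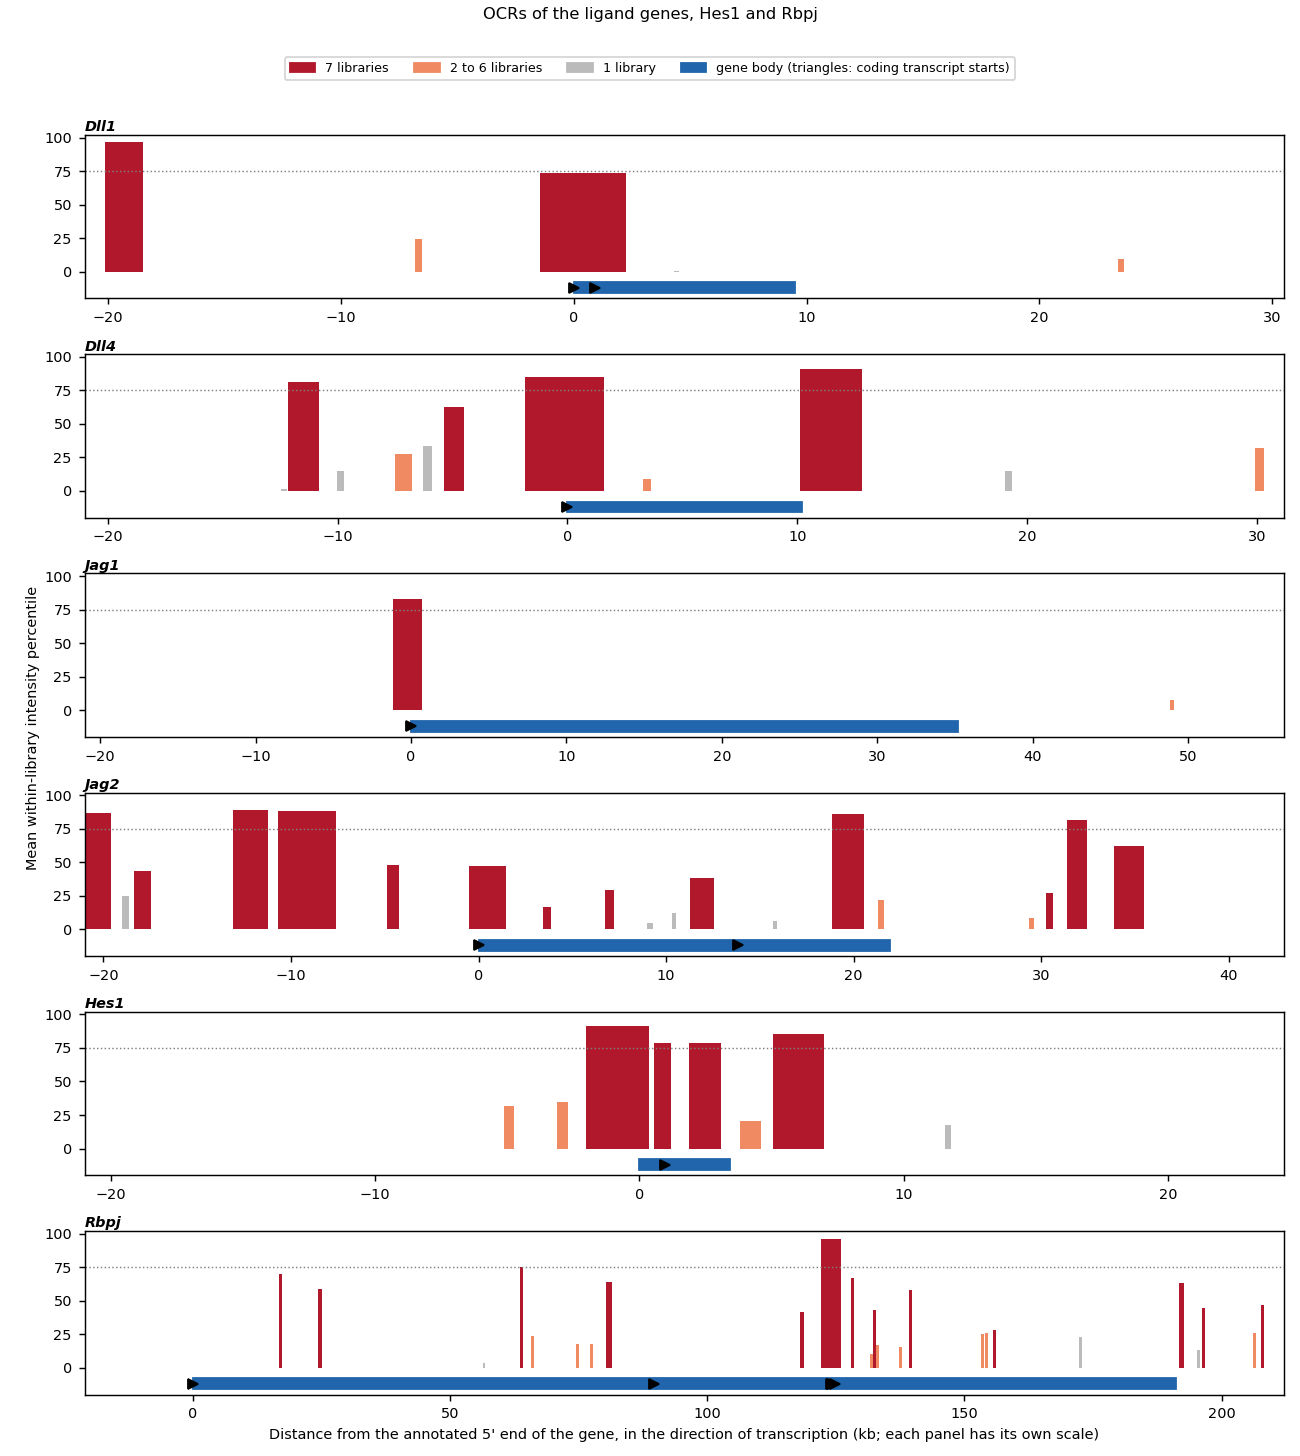
OCRs of the 4 ligand genes, Hes1 and Rbpj as bars at their distance from the annotated 5′ end in the direction of transcription (horizontal axis, kb, own scale in each panel), with the mean within-library percentile as height. Colours, triangles and dotted line are as in the map of the receptor genes. Dll4 has a tall bar just past the 3′ end, at 90.9.

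Promoter percentiles of paralogs and partners were compared within libraries in 5 pairs. The test flipped the signs of the 7 differences in every possible way (exact permutation test, two-sided), with Benjamini-Hochberg adjustment over the 5 pairs. Within 3 kb of any start, Notch1 was below Notch2 by 8.49 ± 2.68 percentile points (SD of the difference, n = 7), lower in 7 of 7 libraries, and Dll1 was below Dll4 by 11.4 ± 4.43, also in 7 of 7. Hes1 was below Rbpj by 4.46 ± 1.19 in 7 of 7. Notch3 was below Notch4 by 26.5 ± 5.73 and Jag1 below Jag2 by 3.08 ± 2.20, again in 7 of 7. Each pair had p = 0.0156 and adjusted p = 0.0156 in this exact permutation test, the smallest p that 7 libraries allow. With replicate libraries of 1 line, this p concerns only whether the order of 2 given loci repeats between libraries. It does not measure the size of the difference. Within 1 kb of any start the difference of Notch1 from Notch2 widened to −28.1 ± 7.65 and that of Notch3 from Notch4 to −38.6 ± 8.46, and the other 3 were the same as within 3 kb. At coding starts within 1 kb Notch1 minus Notch2 was again −28.1 ± 7.65, those of Dll1 with Dll4 and of Hes1 with Rbpj were the same, and the other two turned: Notch3 was above Notch4 by 30.9 ± 9.45 and Jag1 above Jag2 by 35.2 ± 10.2, each in 7 of 7 libraries. Both turned differences had p = 0.0156 and adjusted p = 0.0156 in the same exact permutation test. In 4 of the 7 libraries no Notch4 peak was listed within 1 kb of its coding start and the value was set to 0. Within 3 kb of coding starts, also chosen after the data were seen, Notch3 minus Notch4 was −2.61 ± 4.50, lower in 4 of 7 libraries (exact permutation test, p = 0.188, adjusted p = 0.188), with a mean of 1.54 in the 3 libraries with VD in the peak names and −5.72 in the 4 with EtOH. In the same window Jag1 was above Jag2 by 34.2 ± 8.58 in 7 of 7 (exact permutation test, p = 0.0156, adjusted p = 0.0195). The order of Jag1 and Jag2 therefore turned with the kind of start, and that of Notch3 and Notch4 with the kind of start and the width of the window together. In the 4 libraries with EtOH in the peak names the 5 mean differences for any start lay between −28.4 and −3.74, and in the 3 with VD between −23.8 and −2.22.

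Of 41 other genes of the pathway, 38 had an OCR within 3 kb of a start in all 7 libraries and 36 of these were in the top 25% in all 7, against 60.8% and 50.3% of all protein-coding genes. The 2 without any promoter OCR were Hey2 and Heyl, which encode repressors related to Hes1, while 4 of 6 listed target genes had one in all 7. Neurl1a, which encodes a ubiquitin ligase for ligands, had one in 3 libraries. All 8 genes of receptor cleavage, which encode the ADAM proteases and the subunits of gamma-secretase, and all 8 of the nuclear list, which holds coactivators and corepressors of RBPJ and its paralog Rbpjl, had one in all 7. The highest were Numb, which encodes an endocytic inhibitor of Notch, at 99.6 ± 0.124, Fbxw7, which encodes the part of a ubiquitin ligase that marks the Notch intracellular domain for degradation, at 98.5 ± 0.302, and Aph1b, which encodes a gamma-secretase subunit, at 98.3 ± 0.532 (SD, n = 7). Adam10, at 98.3 ± 0.300, was level with Aph1b at this precision. At coding starts within 1 kb, 36 of the 41 were open in all 7 libraries, against 54.3% of protein-coding genes, and Dlk1 and Dtx1 joined Hey2 and Heyl among those with none.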

How the data were processed

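Bulk ATAC-seq was measured in 7 HPC7 libraries from separate culture batches. Per the study's methods the authors removed adapters (Cutadapt), aligned reads to mm10 (BWA-mem) and ran MACS2 on each library by itself. Versions and options are not given in the sources used here. The values deposited per peak are the fold enrichment (the ratio of summit reads to background), the −log10 p and −log10 q, and a score that the authors' caller made from the latter. Libraries were not normalized to each other. The lowest −log10 q was between 1.36 and 1.73. All fold enrichments (100%) were whole multiples of 1 step within 0.1 of a step, which gave the reads at each summit, their precision and 1 background per library, with no local correction.

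Peaks overlapping by at least 1 bp were merged. Chromosomes were checked against GRCm38 lengths. OCRs named are the strongest promoter OCR of each gene by either definition, the strongest of all 7 libraries in each gene body and outside it, and any other in the top 25% in all 7. Other pathway genes named are the 3 with the highest promoter percentile and those without a promoter OCR, and Adam10, Neurl1a, Dlk1, Dtx1 and the other OCRs named were added after their values were seen. Members and lists were chosen with earlier results of these data known. Libraries without a promoter peak were set to 0. An OCR that this rule names is not reported here. Results were recomputed with a −log10 q minimum of 5, with equal numbers of peaks, other windows and overlaps, 1 kb promoters, coding starts within 1 or 3 kb, percentiles within chromosomes, log10 fold and each library left out. Python 3.11.15, numpy 2.4.6, pandas 2.3.3 and scipy 1.17.1 were used, and merging was tested on simulated data against bedtools 2.31.1.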

Additional observations from a re-analysis of the deposited data

Results flagged for a closer look

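Of 29 measures compared across the 7 libraries, 1 had a library far from the others: the window of Dll4 held 11 peaks in HPC7-1, against 8 in the next highest library. Chance gives such a gap in about 1 of 20 measures. HPC7-1 was also the library with the largest background, 20.4 reads, and its part in this count was not tested.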

How the results depend on the processing

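Of 110 values recomputed under alternatives, 104 kept their direction and their side of the threshold or stayed within 1.5 times the count. The number of OCRs, 160, became 101 with gene bodies alone and 252 with 50 kb on either side, since these windows differ in length. With coding transcript starts and 1 kb, chosen after seeing the data, Notch3 minus Notch4 turned to 30.9 and Jag1 minus Jag2 to 35.2 percentile points, and with 3 kb around coding starts, likewise, the values were −2.61, no longer past the threshold, and 34.2. With each library left out in turn, OCRs found in all the rest numbered 88 to 98, members with a promoter OCR stayed at 10 and other pathway genes at 38. The differences were between −8.99 and −7.80 for Notch1 minus Notch2, −27.9 and −24.8 for Notch3 minus Notch4, −12.2 and −10.2 for Dll1 minus Dll4, −3.54 and −2.40 for Jag1 minus Jag2, and −4.70 and −4.12 for Hes1 minus Rbpj, each with an adjusted p of 0.0312 in the exact permutation test, the smallest that 6 libraries allow. No paired analysis was possible because the labels give 1 group only, so that no groups of libraries could be paired. The differences between genes were taken within libraries. A peak that is not listed may lie under the threshold of that library. Of the 29 OCRs of 1 library, 22 were listed only in HPC7-1, which had the largest background, and the part of depth in this was not tested.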
